A study of Mus musculus with 28 samples.

Results

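The IL-1 and IL-6 type inflammatory genes are 6 genes chosen by name: Il1b, Il1rn, Clec4e, Ptgs2, Lif and Socs3. All 6 were among the 12315 genes listed for whole kidney, and 5 were among the 10523 genes listed for sorted kidney macrophages. Lif was not analysed in macrophages.

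IL-1 beta, the product of Il1b, is made as a precursor by activated myeloid cells and acts through the IL-1 receptor on NF-kB and on inflammatory target genes. Il1rn encodes the IL-1 receptor antagonist, which occupies that receptor without signalling. LIF is an IL-6 family cytokine that signals through gp130 and STAT3, and Socs3 is a STAT3 target whose protein shuts the same receptors down. Ptgs2 encodes COX-2, the inducible enzyme of prostaglandin synthesis, which in the normal kidney is found in the macula densa and in medullary interstitial cells. Clec4e encodes Mincle, a C-type lectin of myeloid cells that senses damaged cells and microbial glycolipids.

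RNA sequencing was done on female C57BL/6 littermates aged 7 to 9 months, in whole kidney (16 libraries, 4 per genotype) and in sorted kidney macrophages (12 libraries, 3 per genotype). The mice were WT, lacked Rhbdf2 (Rhbdf2-/-), lacked Fcgr2b (Fcgr2b-/-, spelled FcR2b-/- in the labels), or lacked both genes and are called double mutant here. Rhbdf2 encodes iRhom2, which takes the protease ADAM17 to the cell surface, and Fcgr2b encodes the inhibitory IgG receptor whose loss leads to lupus-like nephritis on this background. The comparisons ask how the lupus-prone genotype changes these genes and how the added loss of Rhbdf2 changes them. Whole kidneys came from perfused mice. Macrophages were freed with collagenase, enriched on Percoll and sorted as CD45+ F4/80hi CD11b+ Ly6G- Ly6C- cells, so cells carrying Ly6G or Ly6C were gated out. The labels name no tissue-specific allele, and they do not tie each library to its own mouse. The p-values therefore speak of the spread among these libraries, part of which may be technical. Titles of double-mutant libraries name the Rhbdf2 knockout alone, and the genotype label was followed. Each kidney genotype had its own sequencing lane, and the effects of lane and genotype cannot be told apart.

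Kidney libraries held 29014999 to 41615965 reads in the listed genes and macrophage libraries 30852099 to 34869943. A read was worth at most 0.0353 CPM (read counts scaled to library size). Reads of Fcgr2b and Rhbdf2 persist in the knockouts. In kidney Fcgr2b differed from WT by -0.20 ± 0.17 (SE, log2(CPM+1), adjusted p = 0.333) in Fcgr2b-/- samples, and Rhbdf2 by -0.13 ± 0.17 in Rhbdf2-/- samples (adjusted p = 1). The labels do not name the deleted exons, and these reads are no check of the labels. The macrophage markers Adgre1 (listed as Emr1), Csf1r and C1qa were present in every sorted library. The 15 macrophage genes listed for the sort summed to 34200 to 48400 CPM in WT and 39200 to 42700 CPM in Rhbdf2-/- cells. Their sum was higher in the other genotypes, at 57800 to 74700 CPM in Fcgr2b-/- and 55400 to 63200 CPM in double-mutant cells. The neutrophil markers S100a8, S100a9 and Ly6g are not among the genes listed for the sorted cells. In the macrophage set WT2 and iR2ko_KO3 (Rhbdf2-/-) stand apart from the other 2 libraries of their genotype. In kidney the double-mutant library iR2ko_65 stands apart from the other 3.

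The stretches of DNA before the start sites are shown because Lif and Socs3 fell from Fcgr2b-/- to double-mutant kidney, while Il1b, Il1rn and Clec4e did not pass that test. All 6 genes have a window of 250 bases before a start site in the RefSeq table of build GRCm38.p6. Both strands were searched for a STAT site (TTCNNNGAA), an NF-kB site (GGG, any 5 bases, then CC), an AP-1 site (TGANTCA), a CRE core (TGACG) and a C/EBP site (TTNNGNAA). Of 32851 windows of this length, 7.02% hold the STAT letters, 45.8% the NF-kB letters, 6.75% the AP-1 letters, 17.8% the CRE letters and 36.8% the C/EBP letters. Each line gives the strand of the gene, 5′ to 3′, without bases of annotated exons, and capitals mark the matches.
Lif, chr11:4257318-4257556, plus strand: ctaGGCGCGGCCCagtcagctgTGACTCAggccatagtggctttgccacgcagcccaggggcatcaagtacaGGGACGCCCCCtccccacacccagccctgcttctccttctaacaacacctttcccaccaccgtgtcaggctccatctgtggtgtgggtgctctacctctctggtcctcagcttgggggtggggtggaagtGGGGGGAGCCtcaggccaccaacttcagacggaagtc
Socs3, chr11:117969452-117969616, minus strand: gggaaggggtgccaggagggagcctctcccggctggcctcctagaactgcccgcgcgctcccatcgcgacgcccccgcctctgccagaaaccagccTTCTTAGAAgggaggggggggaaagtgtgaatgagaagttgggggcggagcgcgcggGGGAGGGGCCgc
Il1b, chr2:129371140-129371389, minus strand: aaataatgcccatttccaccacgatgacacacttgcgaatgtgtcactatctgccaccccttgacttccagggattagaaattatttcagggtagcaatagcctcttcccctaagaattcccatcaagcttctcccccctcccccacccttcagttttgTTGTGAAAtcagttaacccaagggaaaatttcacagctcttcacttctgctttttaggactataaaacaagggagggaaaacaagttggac
Il1rn, chr2:24336610-24336852, plus strand: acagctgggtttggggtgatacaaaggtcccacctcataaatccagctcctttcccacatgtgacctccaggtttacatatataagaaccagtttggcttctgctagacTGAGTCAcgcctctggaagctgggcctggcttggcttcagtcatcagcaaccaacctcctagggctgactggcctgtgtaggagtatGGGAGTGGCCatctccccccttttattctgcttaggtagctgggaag
Clec4e, chr6:123289872-123290121, minus strand: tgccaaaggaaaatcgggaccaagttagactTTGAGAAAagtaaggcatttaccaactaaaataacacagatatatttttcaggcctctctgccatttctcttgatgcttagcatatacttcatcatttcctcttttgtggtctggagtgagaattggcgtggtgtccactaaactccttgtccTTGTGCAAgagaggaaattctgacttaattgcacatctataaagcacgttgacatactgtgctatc
The STAT letters were found in the Socs3 window alone, as TTCTTAGAA at -154 to -146 from the start site. This window lies before the RefSeq start site used but inside the wider span of Socs3 in the deposited table (chr11:117966079-117970047). Lif holds 4 NF-kB matches, a pair of which overlap, and the AP-1 letters TGACTCA at -228 to -222. The printed Il1rn window holds 1 AP-1 and 1 NF-kB match, and Socs3 1 NF-kB match. Il1rn has 3 windows in the table, of which the first is printed, and the other two hold C/EBP letters and, in the third, NF-kB letters. Il1b and Clec4e hold C/EBP letters and none of the other 4 patterns. The Ptgs2 window is largely inside annotated exons and is not printed. It holds NF-kB letters at -23 to -14 and C/EBP letters at -69 to -62 and at -25 to -18, of which the last overlaps with the NF-kB letters. A match shows the letters and not a bound site.

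In whole kidney all 6 genes rose in Fcgr2b-/- against WT, and in each the 4 Fcgr2b-/- libraries lay above the 4 WT libraries. Of all 12315 genes 29.5% rose and 25.3% lay higher with no overlap of the groups. The median change of the 6 genes was 2.77 in log2(CPM+1), against -0.01 over all genes tested. In double-mutant against Fcgr2b-/- kidney only Lif and Socs3 passed the test among the 6, and both fell. In this comparison 22.8% of all genes fell, and 17.2% lay lower with no overlap. All listed genes have a mean of at least 1 CPM over the libraries. Il1rn, Clec4e and Lif have means below 1 CPM in WT and Rhbdf2-/- kidney, as Clec4e has in macrophages of these genotypes. They are thus listed through the genotypes where they are high, which favours a rise over WT, and the counts and medians are a description. In whole tissue fewer cells of a type and less RNA per cell cannot be told apart.

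**Figure D1:**
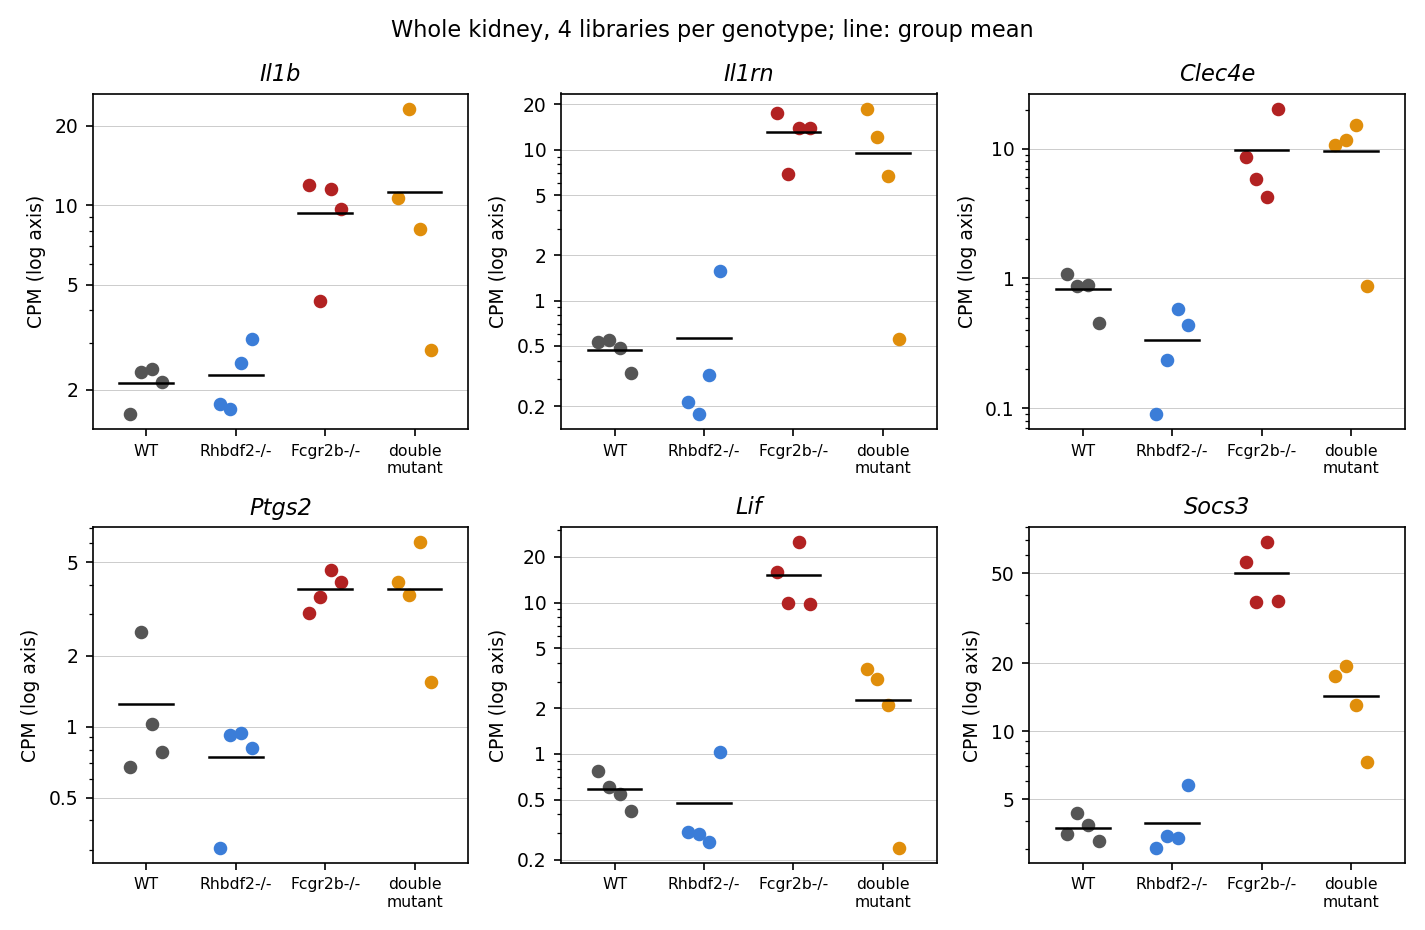
Level of each gene in whole kidney in CPM on log axes, 1 point per library, 4 libraries per genotype, with a line at the group mean. Fcgr2b-/- libraries lie above all WT libraries in the 6 panels, and double-mutant libraries lie below all Fcgr2b-/- libraries for Lif and Socs3.

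The cytokine Il1b (chr2:129364570-129371139, minus strand, mm10) was at 1.62, 2.34, 2.40 and 2.14 CPM in the WT kidneys and at 1.76, 1.69, 2.52 and 3.12 CPM in the Rhbdf2-/- kidneys. It was at 11.9, 4.35, 11.5 and 9.67 CPM in the Fcgr2b-/- kidneys and at 10.7, 23.2, 8.13 and 2.82 CPM in the double-mutant kidneys, the last being iR2ko_65. The Fcgr2b-/- libraries lie above WT without overlap, and the double-mutant libraries span the whole Fcgr2b-/- range. Il1b rose by 1.66 ± 0.42 (SE, n = 4) in Fcgr2b-/- against WT (limma, adjusted p = 0.00323). Double mutant minus Fcgr2b-/- was 0.02, with a 95% interval of -0.86 to 0.91.

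The antagonist Il1rn (chr2:24336853-24351494, plus strand) was at 0.53, 0.545, 0.486 and 0.33 CPM in WT kidneys and at 17.4, 6.92, 14.0 and 14.0 CPM in Fcgr2b-/- kidneys. Rhbdf2-/- kidneys held 0.214, 0.177, 0.321 and 1.56 CPM. Double-mutant kidneys held 18.7, 12.1, 6.67 and, in iR2ko_65, 0.559 CPM, which is beside the WT values. Il1rn rose by 3.19 ± 0.57 in Fcgr2b-/- against WT (adjusted p = 0.000235). Double mutant minus Fcgr2b-/- was -0.85 (95% interval -2.06 to 0.36, adjusted p = 0.234), and without iR2ko_65 it was -0.10 (adjusted p = 0.835).

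The lectin Clec4e (chr6:123281789-123289870, minus strand) was at 1.09, 0.88, 0.887 and 0.45 CPM in WT and at 0.0903, 0.236, 0.585 and 0.435 CPM in Rhbdf2-/- kidneys, where the lowest value is 2 reads. Fcgr2b-/- kidneys held 8.59, 5.79, 4.25 and 20.3 CPM. Double-mutant kidneys held 10.6, 11.6, 15.2 and, in iR2ko_65, 0.877 CPM. That library lies among the WT values while the other 3 lie inside the Fcgr2b-/- range. Clec4e rose by 2.35 ± 0.55 in Fcgr2b-/- against WT (adjusted p = 0.00191), and double mutant minus Fcgr2b-/- was -0.18 (95% interval -1.34 to 0.99).

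The enzyme gene Ptgs2 (chr1:150100031-150108227, plus strand) was at 0.677, 2.52, 1.03 and 0.782 CPM in WT and at 0.307, 0.918, 0.936 and 0.81 CPM in Rhbdf2-/- kidneys. Fcgr2b-/- kidneys held 3.04, 3.56, 4.62 and 4.10 CPM and double-mutant kidneys 4.12, 3.64, 6.07 and 1.55 CPM. The lowest Fcgr2b-/- value is near the highest WT value, so the gap between these groups is small. Ptgs2 rose by 1.16 ± 0.29 in Fcgr2b-/- against WT (adjusted p = 0.00288), and double mutant minus Fcgr2b-/- was -0.08 (95% interval -0.69 to 0.53).

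The IL-6 family cytokine gene Lif (chr11:4257557-4272514, plus strand) was at 0.766, 0.606, 0.544 and 0.42 CPM in WT and at 0.307, 0.295, 0.263 and 1.03 CPM in Rhbdf2-/- kidneys. Fcgr2b-/- kidneys held 16.0, 9.86, 25.0 and 9.80 CPM, and double-mutant kidneys 3.65, 3.12, 2.12 and, in iR2ko_65, 0.241 CPM. The 4 Fcgr2b-/- values lie above every other library, and 3 of 4 double-mutant values lie between them and WT. Lif rose by 3.26 ± 0.36 in Fcgr2b-/- against WT (adjusted p = 4.16e-06) and fell by 2.36 ± 0.36 from Fcgr2b-/- to double mutant (adjusted p = 0.000146). Without iR2ko_65 the second difference was -1.95 (adjusted p = 0.000136).

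The feedback inhibitor Socs3 (chr11:117966079-117970047, minus strand) was at 3.51, 4.34, 3.83 and 3.25 CPM in WT and at 3.05, 3.44, 3.37 and 5.75 CPM in Rhbdf2-/- kidneys. Fcgr2b-/- kidneys held 55.8, 37.4, 68.5 and 37.7 CPM, and double-mutant kidneys 17.5, 19.5, 13.1 and 7.31 CPM. The 3 levels do not overlap: Fcgr2b-/- is highest, double mutant is next, and WT with Rhbdf2-/- is lowest. Socs3 rose by 3.38 ± 0.26 in Fcgr2b-/- against WT (adjusted p = 1.95e-07) and fell by 1.76 ± 0.26 from Fcgr2b-/- to double mutant (adjusted p = 0.000108).

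Loss of Rhbdf2 alone left 0 of 6 genes past the test in kidney, where 0.0% of all genes passed. Of all 12315 genes, 272 had an unadjusted p below 0.05 with limma, and voom and the authors' deposited table also called 0 of 6. The differences from WT ran from -0.45 ± 0.55 for Clec4e to 0.05 ± 0.42 for Il1b. The Rhbdf2 effect with and without Fcgr2b was compared by the interaction term. It was -2.23 ± 0.51 for Lif (adjusted p = 0.00558) and -1.79 ± 0.37 for Socs3 (adjusted p = 0.00293), and 13.9% of all genes were lower in this term. For the other 4 genes it ran from -0.86 ± 0.80 (Il1rn) to 0.28 ± 0.77 (Clec4e), with adjusted p of at least 0.445. With voom on recovered reads the interaction of Lif was -2.66 with adjusted p = 0.257.

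Against WT, 5 of the 6 genes were past the test in double-mutant kidney, where 4.52% of all genes rose. The changes were 1.68 ± 0.42 for Il1b, 2.34 ± 0.57 for Il1rn, 2.17 ± 0.55 for Clec4e, 1.08 ± 0.29 for Ptgs2 and 1.62 ± 0.26 for Socs3, with adjusted p between 0.00809 and 0.0364. Lif differed by 0.89 ± 0.36 (adjusted p = 0.148). Clec4e, Ptgs2 and Lif values overlapped with WT. Against Rhbdf2-/- kidney the same 5 genes passed, where 2.32% of all genes rose, with adjusted p between 0.0114 and 0.0458, and Lif differed by 1.02 ± 0.36 (adjusted p = 0.11). Apart from that of Socs3, these calls lay near the threshold and were lost when any 1 of several libraries was left out. The changes stayed positive in these fits, for Il1b against WT between 1.25 and 2.14. Against WT, Il1b and Clec4e lost theirs without any of WT_346, WT_356, WT_388, WT_550, iR2ko_348, iR2ko_370 and iR2ko_367 (adjusted p 0.0506 to 0.105). Il1rn lost its call without any of these but WT_356, and Ptgs2 without any of these but WT_356 and also without iR2ko_352 (0.0502 to 0.122). Against Rhbdf2-/-, Clec4e and Ptgs2 lost theirs without any of iR2ko_334, iR2ko_351, iR2ko_352, iR2ko_348, iR2ko_370 and iR2ko_367, and Il1rn and Il1b also without any WT library, Il1b also without iR2ko_355 (0.0549 to 0.129). Without iR2ko_65 all 6 genes passed in both comparisons, Lif with 1.31 (adjusted p = 0.00555) against WT and 1.44 (adjusted p = 0.00328) against Rhbdf2-/-. With voom on recovered reads 0 of 6 passed in either comparison, and adjusted p ran from 0.0599 to 0.247 for the 5 genes.

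In sorted macrophages Il1rn, Clec4e, Ptgs2 and Socs3 rose in Fcgr2b-/- against WT and fell from Fcgr2b-/- to double mutant, while Il1b passed neither test. The 4 genes lay higher with no overlap in the first comparison and lower with no overlap in the second. Of all 10523 genes 24.2% rose and 27.0% lay higher without overlap in Fcgr2b-/- against WT. From Fcgr2b-/- to double mutant 13.8% fell and 20.5% lay lower without overlap. The median change of the 5 genes was 4.08 in the first comparison, against -0.09 over all genes, and -1.97 in the second, against 0.04. Both comparisons use the same Fcgr2b-/- libraries.

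**Figure D2:**
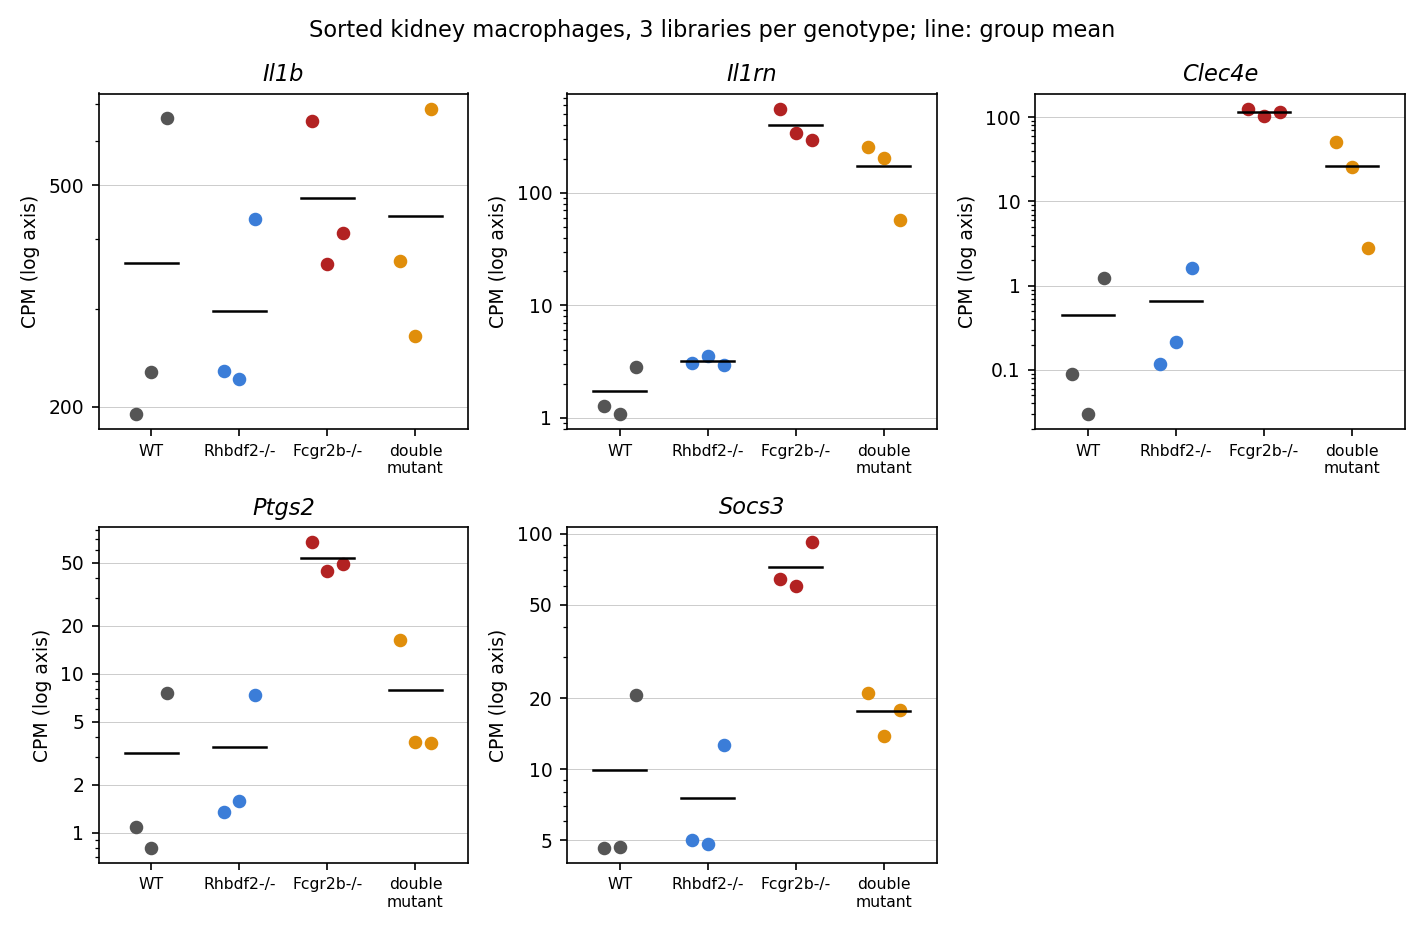
Level of each gene in sorted kidney macrophages in CPM on log axes, 1 point per library, 3 libraries per genotype, with a line at the group mean. Il1b overlaps between all genotypes, while the other 4 genes have their 3 highest values in Fcgr2b-/- cells. The lowest Clec4e point, at 0.03 CPM, is a library with 0 reads.

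Il1b was at 194, 231 and 661 CPM in WT macrophages and at 232, 224 and 435 CPM in Rhbdf2-/- macrophages, the highest values being WT2 and iR2ko_KO3. It was at 652, 361 and 411 CPM in Fcgr2b-/- and at 366, 268 and 686 CPM in double-mutant macrophages. All 4 genotypes overlap. Fcgr2b-/- minus WT was 0.57 ± 0.46 (SE, n = 3, 95% interval -0.44 to 1.57, adjusted p = 0.32), and without WT2 it was 1.11 (adjusted p = 0.0327). Per kilobase of exon Il1b stood between the 97.3 and 98.0 percentile of the listed genes in each genotype. The sorted WT cells thus also held much Il1b RNA, as measured after digestion and sorting. The antisense gene Il1bos shares 25 exonic bases with Il1b and is also listed in macrophages, and the use of strand in counting is not stated.

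Il1rn was at 1.26, 1.08 and 2.81 CPM in WT and at 3.08, 3.53 and 2.97 CPM in Rhbdf2-/- macrophages. It was at 558, 342 and 294 CPM in Fcgr2b-/- cells and at 256, 204 and, in iR2ko_592, 57.8 CPM in double-mutant cells. Fcgr2b-/- and double mutant do not overlap with each other or with the other genotypes. Il1rn rose by 7.20 ± 0.45 in Fcgr2b-/- against WT (adjusted p = 1.18e-06) and ranked 15 of 10523 by p. It fell by 1.40 ± 0.45 from Fcgr2b-/- to double mutant (adjusted p = 0.0361). This second call was lost without FcR2bko_847 (adjusted p = 0.116), without FcR2bko_595 (0.0683) and without iR2ko_592, when the change was -0.74 (0.0959). It was also lost with quantile normalization (adjusted p = 0.0563) and with the 2 groups fitted alone (0.0901).

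Clec4e was at 0.0885 CPM (2 reads), 0 reads and 1.24 CPM in WT macrophages, the last being WT2. It was at 0.118, 0.214 and 1.64 CPM in Rhbdf2-/- cells, the last being iR2ko_KO3. Fcgr2b-/- cells held 126, 102 and 114 CPM, and double-mutant cells 51.4, 25.5 and, in iR2ko_592, 2.83 CPM. The 3 Fcgr2b-/- values lie close together and far above the rest, and the double-mutant values are spread widely between them and WT. Clec4e rose by 6.39 ± 0.73 in Fcgr2b-/- against WT (adjusted p = 3.82e-05), although with voom on recovered reads adjusted p was 0.133. It fell by 2.71 ± 0.73 from Fcgr2b-/- to double mutant (adjusted p = 0.016), and by 1.62 without iR2ko_592 (adjusted p = 0.0237).

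Ptgs2 was at 1.08, 0.806 and, in WT2, 7.56 CPM in WT and at 1.35, 1.57 and, in iR2ko_KO3, 7.39 CPM in Rhbdf2-/- macrophages. It was at 67.2, 44.1 and 49.3 CPM in Fcgr2b-/- cells and at 16.4, 3.72 and 3.69 CPM in double-mutant cells. The double-mutant range overlaps with those of WT and Rhbdf2-/-. Ptgs2 rose by 4.08 ± 0.67 in Fcgr2b-/- against WT (adjusted p = 0.000386) and fell by 2.89 ± 0.67 from Fcgr2b-/- to double mutant (adjusted p = 0.00733).

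Socs3 was at 4.65, 4.66 and, in WT2, 20.6 CPM in WT and at 5.01, 4.82 and, in iR2ko_KO3, 12.7 CPM in Rhbdf2-/- macrophages. It was at 64.2, 60.2 and 92.0 CPM in Fcgr2b-/- cells and at 21.0, 13.9 and 17.9 CPM in double-mutant cells. WT2 reaches into the double-mutant range, and the other 2 WT libraries lie below it. Socs3 rose by 3.02 ± 0.47 in Fcgr2b-/- against WT (adjusted p = 0.000284) and fell by 1.97 ± 0.47 from Fcgr2b-/- to double mutant (adjusted p = 0.00887). In the authors' deposited table Socs3 was past FDR 0.05 in this second comparison. Il1rn (FDR 0.0856), Clec4e (0.141) and Ptgs2 (0.0525) are listed there too but were not past FDR 0.05.

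Double-mutant macrophages still held more Il1rn and Clec4e than WT cells. Il1rn rose by 5.80 ± 0.45 (adjusted p = 2.25e-05) and Clec4e by 3.68 ± 0.73 (adjusted p = 0.00857), and 9.88% of all genes rose in this comparison. Ptgs2 differed by 1.19 ± 0.67 (adjusted p = 0.226), Socs3 by 1.05 ± 0.47 (0.136) and Il1b by 0.39 ± 0.46 (0.576). Without WT2, Ptgs2 (1.91, adjusted p = 0.0379) and Socs3 (1.70, 0.00489) passed as well. Against Rhbdf2-/- cells Il1rn rose by 5.12 ± 0.45 (adjusted p = 9.08e-05) and Clec4e by 3.51 ± 0.73 (0.0119), where 9.2% of all genes rose. Socs3 differed there by 1.23 ± 0.47 (adjusted p = 0.0862), and without WT2 by 1.23 with adjusted p = 0.017. The call of Clec4e in both comparisons was lost with voom on recovered reads (adjusted p 0.366 and 0.325).

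Loss of Rhbdf2 alone left 0 of 5 genes past the limma test in macrophages, where 0.019% of all genes passed and 339 had an unadjusted p below 0.05. Voom and the authors' deposited table also called 0 of 5. The differences from WT ran from -0.17 ± 0.47 for Socs3 to 0.68 ± 0.45 for Il1rn, whose 3 Rhbdf2-/- values lie above the 3 WT values, as those of 6.05% of all genes do. The interaction term passed for 0 of 5 genes, where 5.89% of all genes were lower. It was -2.07 ± 0.64 for Il1rn (adjusted p = 0.0555), -2.88 ± 1.04 for Clec4e (0.0929), -3.10 ± 0.94 for Ptgs2 (0.0523), -1.80 ± 0.67 for Socs3 (0.103) and -0.04 ± 0.65 for Il1b (0.981). Without WT2 it passed for Il1rn, Ptgs2 and Socs3 (adjusted p 0.0421, 0.017 and 0.0105), and without iR2ko_579 for Il1rn, Clec4e and Ptgs2 (0.026, 0.0262 and 0.0229). So in these macrophages the fall of the 4 genes with loss of Rhbdf2 was not shown to differ from the effect of that loss in mice with Fcgr2b.

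**Figure D3:**
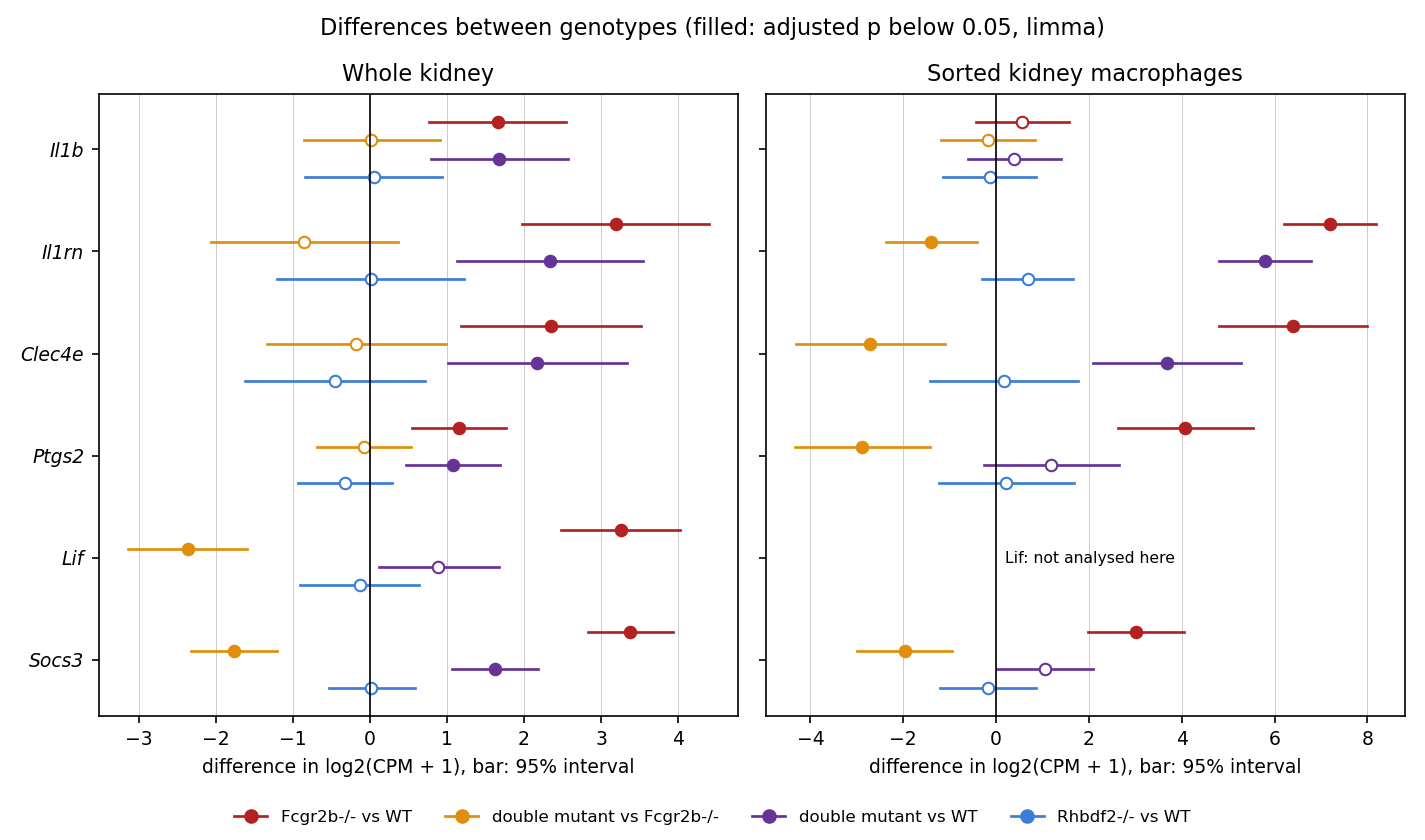
Differences in log2(CPM+1) between genotypes for each gene, in whole kidney and in sorted macrophages, with 95% intervals and filled points where limma's adjusted p is below 0.05. Double mutant minus Fcgr2b-/- is filled for Lif and Socs3 in kidney and for Il1rn, Clec4e, Ptgs2 and Socs3 in macrophages, while the points of Rhbdf2-/- minus WT are all open.

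The balance of antagonist to cytokine was described as Il1rn over Il1b, each per kilobase of exon. In kidney it was 0.0918 to 0.194 in WT, 0.0622 to 0.297 in Rhbdf2-/- and 0.722 to 0.946 in Fcgr2b-/- libraries. Double-mutant kidneys held 1.04 in iR2ko_348, 0.311 in iR2ko_370, 0.487 in iR2ko_367 and 0.118 in iR2ko_65. The first lies above every Fcgr2b-/- library and the others lie below every Fcgr2b-/- library, iR2ko_65 inside the WT range. In macrophages the ratio was 0.00253 to 0.00385 in WT, 0.00405 to 0.00939 in Rhbdf2-/- and 0.426 to 0.564 in Fcgr2b-/- libraries. Double-mutant macrophages held 0.416 and 0.453, and 0.0501 in iR2ko_592. The ratio is a description and was given no test.

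**Figure D4:**
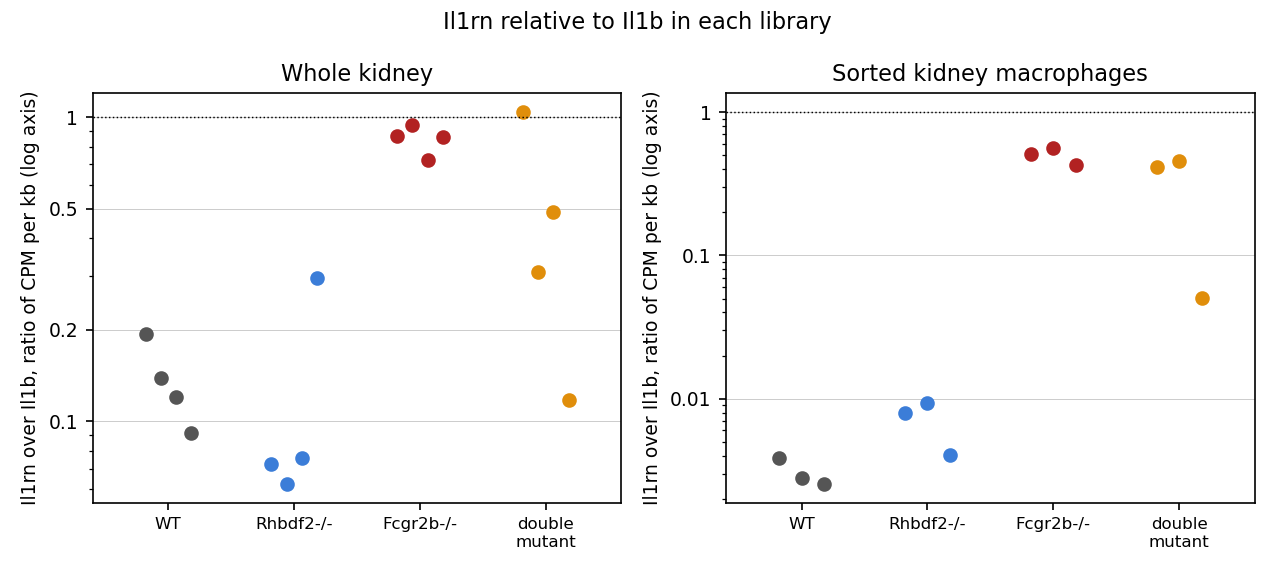
Ratio of Il1rn to Il1b, both in CPM per kilobase of exon, in each library of whole kidney and of sorted macrophages, on log axes with a dotted line at 1. All Fcgr2b-/- libraries lie above all WT libraries in both tissues, and iR2ko_65 in kidney and iR2ko_592 in macrophages are the lowest double-mutant points.

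Per kilobase of exon, Socs3 had the highest mean level of the 6 genes in WT kidney (1.29 CPM per kb), followed by Il1b (1.11), and their ranges overlap. Ptgs2 (0.273), Clec4e (0.167), Il1rn (0.147) and Lif (0.134) followed, with overlapping ranges, and all 4 were at or below the 1.12 percentile of the listed genes. In Fcgr2b-/- kidney Socs3 (17.2) was above Il1b (4.91), Il1rn (4.08) and Lif (3.49), whose ranges overlap. Clec4e (1.96) overlaps with these 3 genes and with Ptgs2 (0.837), whose mean was lowest. In WT macrophages Il1b (190 CPM per kb) was far above Socs3 (3.45), Ptgs2 (0.688), Il1rn (0.536) and Clec4e (0.0912). The range of Ptgs2 overlaps with those of Socs3, Il1rn and Clec4e. In Fcgr2b-/- macrophages Il1rn (124) came next to Il1b (249), at the 95.7 percentile of the listed genes, above Socs3 (25.0) and Clec4e (22.9), which overlap, and Ptgs2 (11.7).

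Across the 16 kidney libraries the values of Lif and Socs3 had the highest Pearson correlation among the 6 genes (0.97), and those of Lif with Clec4e and with Ptgs2 the lowest (0.74 each). Across the 12 macrophage libraries Ptgs2 with Socs3 (0.97) and Il1rn with Clec4e (0.96) were highest, and Il1b with Clec4e lowest (0.41). These values describe points that share genotype and library, and no test was made. The genes most like Lif in kidney were Sbno2 (0.992), Flna, which encodes an actin crosslinker, and Tubb5, a tubulin. Those most like Socs3 were Runx1 (0.991), a transcription factor, Trem2, a myeloid lipid receptor, and Rap1b. Il1b was nearest to Pik3ap1 (0.969) and Pou2f2, and Il1rn to the chemokine gene Ccl9 (0.977), Cd44 and Tnfrsf1b. Clec4e was nearest to Fgr (0.959), a myeloid kinase, Cd300a and Gngt2, and Ptgs2 to Tmsb4x (0.914), Fam105a and Aim1. In macrophages Il1b was nearest to the chemokine gene Ccl4 (0.935), Xpo4 and Nap1l1, and Il1rn to Anxa1 (0.991), the complement gene C3 and Hvcn1. Clec4e was nearest to Gda (0.991), Anxa4 and Anpep, Ptgs2 to Plk3 (0.981), the chemokine gene Cxcl2 and Ifrd1, and Socs3 to Dad1 (0.990), Plscr1 and Rgs1.

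Genes around the IL-1 axis were counted from lists. In kidney 29.5% of all genes rose and 30.8% fell in Fcgr2b-/- against WT. There 0 of 3 measured genes of IL-1 family ligands and antagonists fell and 2 rose. They were Il1f6, which encodes IL-36 alpha (3.25 ± 0.30), and Il33 (1.73 ± 0.35). Of 5 receptors 3 rose, among them the signalling receptor Il1r1 (1.13 ± 0.12). Of 8 inflammasome and release genes 6 rose and 1 fell, with Casp4 (2.25 ± 0.28), the pore gene Gsdmd (1.50 ± 0.28) and the sensor Nlrp3 (1.47 ± 0.31). Of 12 genes of IL-1 and Toll receptor signalling 3 rose and 4 fell, and the inhibitor Irak3 changed most (1.60 ± 0.21). From Fcgr2b-/- to double mutant 22.5% of all genes rose and 22.8% fell. Il1f6 fell by 2.69 ± 0.30 in this comparison, Il1r1 by 0.81 ± 0.12, Casp4 by 0.85 ± 0.28 and Irak3 by 0.68 ± 0.21. These were the only falls in the 4 lists, and 1 gene of the release list rose.

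In macrophages 24.2% of all genes rose and 28.5% fell in Fcgr2b-/- against WT. There 0 of 7 measured IL-1 family receptors rose and 4 fell. They include the decoy receptor Il1r2 (-2.23 ± 0.23), Il18r1 (-1.99 ± 0.31) and the IL-33 receptor Il1rl1 (-2.40 ± 0.37). All 3 were higher in double-mutant than in Fcgr2b-/- cells, by 1.21 ± 0.23, 1.54 ± 0.31 and 1.42 ± 0.37, where 15.8% of all genes rose and 13.8% fell. The IL-36 receptor gene Il1rl2 fell in that comparison (-1.48 ± 0.38). Of 9 inflammasome genes 2 rose and 3 fell, Nlrp3 by 0.76 ± 0.14. Of 3 genes of ligands and antagonists the antagonist gene Il18bp (1.56 ± 0.58) and the ligand gene Il33 (1.07 ± 0.42) rose, and Il18 fell by 0.71 ± 0.18.

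Among the IL-6 family ligands in kidney beside Lif, Clcf1 rose by 2.50 ± 0.19 in Fcgr2b-/- against WT. It fell by 2.00 ± 0.19 from Fcgr2b-/- to double mutant, while Ctf1 passed neither test. Of all kidney genes 29.5% rose and 30.8% fell in Fcgr2b-/- against WT, and of 7 IL-6 family receptors 3 rose and 3 fell. The oncostatin M receptor Osmr rose by 2.07 ± 0.26, and the LIF receptor Lifr and the CNTF receptor Cntfr fell by 0.48 ± 0.09 and 1.17 ± 0.15. Of 20 JAK, STAT and SOCS genes other than Socs3, 5 rose and 3 fell, and Stat3 rose by 1.32 ± 0.12. From Fcgr2b-/- to double mutant, where 22.5% of all genes rose and 22.8% fell, 3 receptors rose and 1 fell, and 6 JAK, STAT and SOCS genes rose and 5 fell. Osmr was the receptor that fell, by 0.92 ± 0.26, and Lifr rose by 0.35 ± 0.09. Stat3 fell by 0.75 ± 0.12 and Stat5b rose by 0.45 ± 0.08.

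In macrophages 4 IL-6 family ligands were measured. Osm, which encodes oncostatin M, rose by 2.76 ± 0.35 in Fcgr2b-/- against WT and fell by 3.11 ± 0.35 from Fcgr2b-/- to double mutant. Ebi3, Clcf1 and Il27 went the other way in both comparisons and passed both tests. Clcf1 thus rose in Fcgr2b-/- kidney and fell by 1.13 ± 0.20 in Fcgr2b-/- macrophages, and the difference between the tissues was not tested because they were normalized separately. Of 18 JAK, STAT and SOCS genes 0 rose and 7 fell in Fcgr2b-/- macrophages, where 24.2% of all genes rose and 28.5% fell. Stat2 fell by 2.08 ± 0.29 and Tyk2 by 1.24 ± 0.22. From Fcgr2b-/- to double mutant 8 of the 18 rose and 0 fell, where 15.8% of all genes rose and 13.8% fell.

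Of 18 prostaglandin genes other than Ptgs2 measured in kidney, 9 rose and 4 fell in Fcgr2b-/- against WT, and 3 rose and 7 fell from Fcgr2b-/- to double mutant. The shares of all genes were 29.5% and 30.8% in the first comparison and 22.5% and 22.8% in the second. Hpgds, the prostaglandin D synthase of haematopoietic cells, rose by 2.28 ± 0.27 and fell by 1.11 ± 0.27, and the PGE2 receptor Ptger4 rose by 1.47 ± 0.22 and fell by 0.60 ± 0.22. In macrophages 4 of 12 rose and 3 fell in Fcgr2b-/- against WT (24.2% and 28.5% of all genes), and 1 rose and 3 fell from Fcgr2b-/- to double mutant (15.8% and 13.8%). Hpgd, which breaks prostaglandins down, fell by 2.04 ± 0.22 there, and it was 1.41 ± 0.22 higher in double-mutant than in Fcgr2b-/- cells. The genes that fell in the second comparison were Hpgds (-0.68 ± 0.13), Ptgs1 (-0.95 ± 0.26), which encodes COX-1, and the PGE2 synthase Ptges (-0.95 ± 0.30).

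Of 11 genes of Clec4e partners and signalling measured in kidney, 10 rose and 0 fell in Fcgr2b-/- against WT, with a median of 2.34. The shares of all genes were 29.5% and 30.8%. Clec4d, whose product pairs with Mincle, rose by 3.08 ± 0.33 and Clec4n, which encodes Dectin-2, by 3.39 ± 0.44. From Fcgr2b-/- to double mutant 5 of 11 fell and 0 rose (22.8% and 22.5% of all genes). Clec4d fell by 1.58 ± 0.33 and Clec4n by 1.48 ± 0.44. In macrophages 6 of 13 rose and 3 fell in Fcgr2b-/- against WT (24.2% and 28.5% of all genes). Clec4d (5.59 ± 0.52) and Clec4n (3.94 ± 0.49) changed most. Both fell from Fcgr2b-/- to double mutant, Clec4d with -2.65 ± 0.52 and Clec4n with -2.75 ± 0.49. Of the 13 genes 4 rose and 3 fell in that comparison (15.8% and 13.8% of all genes), and Clec4b1 rose by 1.79 ± 0.20.

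**Figure D5:**
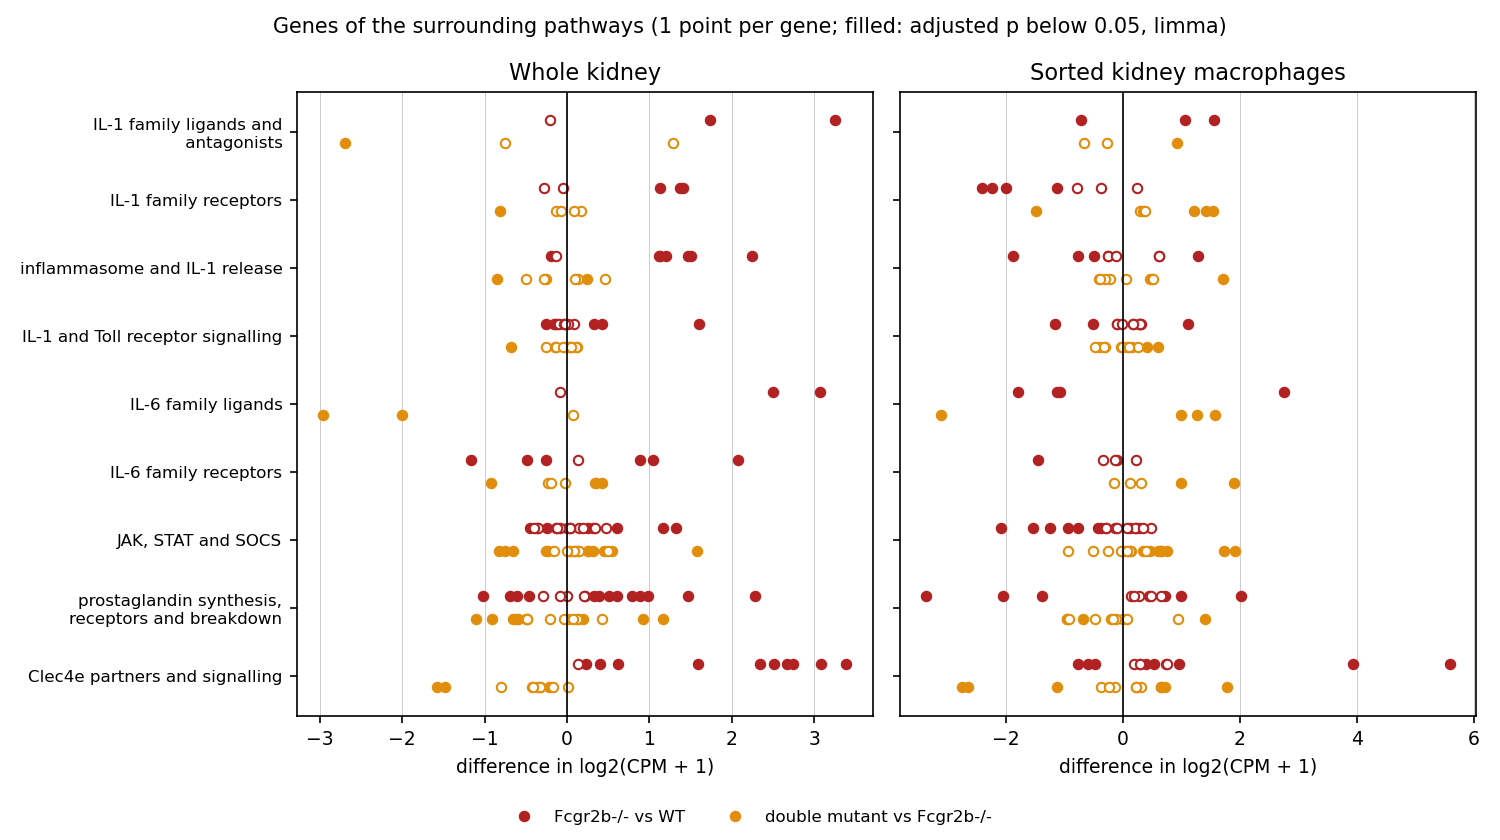
Difference in log2(CPM+1) of each measured gene of 9 pathway lists, members aside, in whole kidney and in sorted macrophages, with filled points where limma's adjusted p is below 0.05. In kidney the genes around Clec4e lie to the right in Fcgr2b-/- against WT, and the macrophage IL-1 receptors that passed lie to the left.

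Marker sums of cell types also differed between genotypes, some higher and some lower in Fcgr2b-/- than in WT. In kidney the 15 macrophage genes summed to 659 to 736 CPM in WT and 1530 to 3480 CPM in Fcgr2b-/-. They summed to 1500 to 2440 CPM in 3 double-mutant libraries and to 816 CPM in iR2ko_65. Monocyte genes (10 of 11 measured) summed to 196 to 272 CPM in WT, at most 596 CPM in Fcgr2b-/-, while double-mutant kidneys held 184 to 333 CPM. This sum mixes genes of different course. Ace stood at 136 to 168, 20.9 to 49.9 and 135 to 153 CPM in the same order. Mean Fn1 was 47.8, 258 and 53.7 CPM, Chil3 0.215, 12.2 and 1.44, and Nr4a1 5.4, 24.0 and 8.61. Mean Ccr2 was 8.82, 24.1 and 23.7 CPM, F10 0.969, 4.47 and 4.36, and Treml4 0.995, 3.84 and 3.54. Mean Plac8 was 12.3, 46.8 and 36.3 CPM, Ly6c2 0.874, 7.54 and 4.2, and Vcan 5.42, 6.11 and 1.81. Of 14 neutrophil genes 3 were measured, and their sum was 50.3 to 120 CPM in WT, where Hdc makes up most of it, 23.8 to 41.9 CPM in Fcgr2b-/-, with double-mutant kidneys at 36.4 to 77.1 CPM. S100a9 stood at 0.50 to 0.727 CPM in WT, 2.64 to 14.7 CPM in Fcgr2b-/- and 1.52 to 11.6 CPM in double-mutant kidneys. Csf3r stood at 0.825 to 1.61, 5.62 to 16.2 and 1.41 to 9.55 CPM in the same order. The 11 tubule genes summed to 28400 to 30600 CPM in WT, 10300 to 12500 CPM in Fcgr2b-/- and 22100 to 26400 CPM in double-mutant kidneys. The part of these cell types in the levels of the 6 genes was not tested.

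Genes known to respond to tissue handling and digestion, such as Fos, Atf3 and Zfp36, were summed as well (14 of 15 measured in each tissue). In macrophages they summed to 1000 and 1260 CPM in the 2 lower WT libraries and 3310 CPM in WT2. They summed to 1000 and 1050 CPM in the lower Rhbdf2-/- libraries and 2850 CPM in iR2ko_KO3. Fcgr2b-/- cells held 5170 to 7190 CPM and double-mutant cells 1610 to 2260 CPM. Il1b, Clec4e, Ptgs2 and Socs3 were highest of their genotype in WT2 and iR2ko_KO3. Without these 2 libraries together, a choice made after seeing the data, the same 4 genes passed in Fcgr2b-/- against WT and also Il1b (1.11, adjusted p = 0.0211), and 4 passed from Fcgr2b-/- to double mutant. In kidney these genes summed to 184 to 278 CPM in WT, 547 to 621 CPM in Fcgr2b-/- and 236 to 309 CPM in the double mutant. Their part in the results was not tested. Neutrophil markers other than Csf3r and Mmp8 are not among the genes analysed in macrophages. Mmp8 was at most 0.224 CPM in WT, 3.51 to 18.3 CPM in Fcgr2b-/- and at most 1.05 CPM in double-mutant cells. Both genes together, mostly Csf3r, summed to 72.0 to 105 CPM in WT cells. The sum was 109 to 118 CPM in Fcgr2b-/- and 159 to 169 CPM in double-mutant cells. From Fcgr2b-/- to double mutant 1 of these 2 genes rose and 1 fell (15.8% and 13.8% of all genes). Monocyte genes (8 of 11) summed to at most 993 CPM in WT, 1100 to 1810 CPM in Fcgr2b-/- and 776 to 1450 CPM in double-mutant cells, with iR2ko_592 the lowest of these. In both tissues Nr4a1 is counted in the monocyte sum and in the sum of handling genes. T and NK cell genes (8 of 11) summed to 264 to 332 CPM in WT and 46.1 to 88.1 CPM in Fcgr2b-/- cells, and double-mutant cells held 265 to 475 CPM. Dendritic cell genes (6 of 8) summed to 44.4 to 93.6 CPM in WT, 4.17 to 12.7 CPM in Fcgr2b-/- and 94.0 to 199 CPM in double-mutant cells. Tubule genes (9 of 11) summed to 1820 to 7930 CPM in WT, 459 to 1510 CPM in Fcgr2b-/- and 611 to 2560 CPM in double-mutant cells. B and plasma cell genes (6 of 9) summed to 315 to 710, 166 to 200 and 302 to 320 CPM in the same order. The part of these cell types in the macrophage results was not tested.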

How the data were processed

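RNA was sequenced as single reads from whole kidney (TruSeq) and sorted macrophages (SMART-Seq v4), per the labels' protocols. The expression values are log2 CPM per library made by the authors, per the file headers, with each tissue normalized separately. The authors' deposited tables also give log2 fold changes, p-values and FDR of 4 comparisons in each tissue, and their F statistic, a score in the deposited table, was not used. Exon length in bases, a further column of the authors, gave levels per kilobase, and gene names and positions are those of the deposited tables. Starts there lie 1 base before those of GENCODE vM21 and are printed 1-based. Per the submitters' processing notes the genome was mm10 and GRCm38. The aligner, counter, annotation and strand setting were not given in the sources used here.

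Deposited values were turned back into CPM, 1 was added, and the log2 of the sum was analysed with limma 3.58.1 (trend, R 4.3.3) on all genes of a tissue, 4 genotypes in 1 fit, with Benjamini-Hochberg adjustment over all genes of a comparison and a threshold of 0.05. All changes are in log2(CPM+1), a scale that shrinks changes of weakly expressed genes. All deposited genes had a mean of at least 1 CPM. Reads were recovered from the deposited values, since 100% of the 735 low kidney values and 1296 low macrophage values were whole multiples of a read (tolerance 0.1 read). The floor of 3 reads was 0.0677 to 0.106 CPM (kidney) or 0.0831 to 0.0989 CPM (macrophages) and covers counting error only. There were 0 other columns of samples and 0 identical pairs of libraries. The fit was tested on simulated data.

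The 6 genes, the lists and the tests were chosen with earlier results of these data known. Named genes were the 6 genes in every library, up to 4 genes per list with the smallest p in Fcgr2b-/- against WT or double mutant against Fcgr2b-/-, Rhbdf2 and Fcgr2b, and for each of the 6 the 3 genes of highest Pearson correlation among those with mean log2 CPM of at least 1. Older symbols were matched through the RefSeq table (Adgre1 as Emr1, Jchain as Igj). Alternatives were pseudocounts of 0.5 and 2 CPM, a filter at a mean of 1 CPM, voom on recovered reads, quantile normalization, the 2 groups alone, the authors' FDR, each library left out, and a replicate block. Some genes that this rule names are not reported here.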

Additional observations from a re-analysis of the deposited data

Results flagged for a closer look

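Within a kidney genotype, a library was taken to stand apart from the other 3 when its gap to the nearest of them, divided by the range of the group in log2(CPM+1), exceeded 0.829. This was looked for in 24 groups of 4 libraries and found in 4, and chance alone gives about 1 in 20. In Rhbdf2-/- kidney the library iR2ko_355 was the highest for Il1rn (0.851 of the range) and for Lif (0.928), and it was also the highest of its genotype for Socs3 and Il1b. In the same genotype iR2ko_334 was the lowest for Ptgs2, at the limit itself (0.829). In double-mutant kidney iR2ko_65 was the lowest for Clec4e (0.846), and it was the lowest of its genotype for the other 5 genes as well.

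The effect of Rhbdf2 loss differed between mice with and without Fcgr2b in kidney for 2 genes by the interaction term. It was -2.23 in log2(CPM+1) for Lif and -1.79 for Socs3.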

How the results depend on the processing

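In kidney 6 of 6 genes passed in Fcgr2b-/- against WT and 2 of 6 in double mutant against Fcgr2b-/- under every alternative run that could change them, each library left out included (a filter at a mean of 1 CPM removed no gene), and 0 of 6 in Rhbdf2-/- against WT. No value that passed the test changed its sign. Some values that did not pass changed sign with 1 library left out. In kidney double mutant against Fcgr2b-/-, Il1b (0.02) then ran from -0.4 to 0.48 and Clec4e (-0.18) from -0.51 to 0.53. Over 810 gene values in kidney and 620 in macrophages, 81 and 12 lost their call and 2 and 29 gained one. With 1 library left out, genes of the 6 past the test ran from 1 to 6 in kidney for double mutant against WT and against Rhbdf2-/-, and in macrophages from 2 to 4 and 0 to 3 for double mutant against WT and the interaction. Counts over all genes then ran from 121 to 1706 (898 with all libraries) and 27 to 1566 (431) in those kidney comparisons, and in macrophages from 450 to 3007 (1943) for double mutant against WT, 598 to 2601 (1918) against Rhbdf2-/-, 517 to 1304 (1255) for the interaction and 2 to 8 (2) for Rhbdf2-/- against WT.

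With voom 0 of 6 genes passed in kidney for double mutant against WT (159 over all genes) and against Rhbdf2-/- (19), 1 in the interaction, and in macrophages 1 each for double mutant against WT and against Rhbdf2-/- (1151), with 0 genes overall for Rhbdf2-/- against WT. Voom took no scaling factor, and it moved the median of all genes from -0.01 to 0.21 in kidney Fcgr2b-/- against WT. With the 2 groups alone 1 and 2 of 6 passed in kidney against WT and against Rhbdf2-/-, with 3550 genes for double mutant against Fcgr2b-/- (5578 in the joint fit), and in macrophages 599 genes for double mutant against WT and 5 for Rhbdf2-/- against WT. By the authors' deposited FDR 1 of 5 passed in macrophages for double mutant against Fcgr2b-/-, and 0 genes for Rhbdf2-/- against WT. Pseudocounts of 0.5 and 2 CPM gave 1 gene each in the macrophage interaction, Il1rn and Ptgs2.

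Left out together after seeing the data, WT2 and iR2ko_KO3 gave 4 of 5 (2954 over all genes) for double mutant against WT and 2 in the interaction. With iR2ko_592 also left out, 4 passed (2955), 4 against Rhbdf2-/- and 4 in the interaction (726). The letters a and b are shared by 2 WT and 2 Rhbdf2-/- macrophage libraries, and nothing in the labels says that they pair. The difference a minus b correlated at 0.20 between genotypes over 10523 genes. A replicate block on these letters, with those 4 libraries alone, called 877 genes and Il1rn (0.99, adjusted p = 0.0353). The other causes were not tested. Clec4e in WT macrophages rests on 0 to 40 reads, so its change there depends on the pseudocount.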
